A study of Mus musculus with 6 samples.

Results

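The S100 genes encode small proteins of a calcium-binding family. Here 8 of them (*S100a4*, *S100a6*, *S100a8*, *S100a9*, *S100a10*, *S100a11*, *S100a13* and *S100a16*) were followed through the cell types that a fibroblast sort of mouse colon tumors had captured. They were chosen by name, as 8 of the 16 S100 genes and of the 19069 genes in the transcript tables. Earlier results of these data were known when that choice was made. The cells came from AOM/DSS colon tumors, induced by a carcinogen together with a chemical colitis, and had been depleted by flow cytometry of cells with EPCAM (epithelium), CD45 (leukocytes) or CD31 (endothelium) on their surface. In SORT-seq, single cells are sorted into the 384 wells of a plate and the 3′ ends of their mRNA molecules are tagged with molecular barcodes before amplification. There was 1 plate per mouse. Mice 1, 3 and 4 were Zeb1Fib-Ctrl, littermates negative for the Col6a1-Cre transgene, and mice 2, 5 and 6 were Zeb1Fib-deleted and carried it. All mice were homozygous for the floxed *Zeb1* allele (Zeb1 fl/fl) and bore tumors of the same model. The methods state age matching and the use of both sexes for the experiments in general, and do not give the sex of these 6 mice. The *Col6a1* promoter drives Cre constitutively and is known to act in part of the intestinal mesenchymal cells, so fibroblasts without recombination can be present in the Zeb1Fib-deleted mice.

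Most S100 proteins form dimers, bind calcium through EF-hand motifs and then attach to partner proteins, but not every member needs calcium for this. Inside cells they act on annexins, the cytoskeleton and membranes, and several are released and act as danger signals. S100A8 and S100A9 pair as calprotectin, the most abundant cytosolic protein complex of neutrophils and a fecal marker of intestinal inflammation. S100A4, also called fibroblast-specific protein, binds non-muscle myosin and has long been used as a marker of tumor fibroblasts. S100A10 forms a tetramer with annexin A2 that binds plasminogen at the cell surface and carries the scaffold protein AHNAK. S100A6 and S100A11 bind other annexins, S100A13 takes part in the unconventional release of FGF1 and interleukin-1α, and S100A16 is a widely expressed member with weak calcium binding.

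All 8 genes lie on chromosome 3 (GRCm38, GENCODE annotation). *S100a13* (chr3:90514435-90524581, + strand), *S100a16* (chr3:90537254-90543151, +), *S100a4* (chr3:90603771-90606045, +), *S100a6* (chr3:90612882-90624181, +), *S100a8* (chr3:90668978-90670035, +) and *S100a9* (chr3:90692632-90695721, −) share a stretch of 181.3 kb. *S100a11* (chr3:93520488-93526287, +) and *S100a10* (chr3:93555080-93564643, +) are neighbors 28.8 kb apart outside that stretch. *S100a4* overlaps the gene model *Gm42674* on the same strand, so its counts are uncertain to the extent that reads were assigned to that model. Shown here are the 250 bases upstream of the RefSeq start site (GRCm38.p6) for the 3 members that were higher in neutrophil-like than in fibroblast-like wells and for *S100a4*, which was the lowest there relative to fibroblasts. Capitals mark a TATA box (TATAAA), a C/EBP motif (TTGCNNAA), an AP-1 motif (TGANTCA) or the E-box CACCTG that ZEB factors bind, each searched on both strands, and *S100a9* is written on its own strand, which is the minus strand.
S100a8 (chr3:90668821-90669070, +): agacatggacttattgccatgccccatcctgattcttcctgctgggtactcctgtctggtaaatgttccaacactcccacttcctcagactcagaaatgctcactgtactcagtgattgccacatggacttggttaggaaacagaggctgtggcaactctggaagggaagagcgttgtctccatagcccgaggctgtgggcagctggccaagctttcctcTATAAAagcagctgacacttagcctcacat
S100a9 (chr3:90695722-90695971, −): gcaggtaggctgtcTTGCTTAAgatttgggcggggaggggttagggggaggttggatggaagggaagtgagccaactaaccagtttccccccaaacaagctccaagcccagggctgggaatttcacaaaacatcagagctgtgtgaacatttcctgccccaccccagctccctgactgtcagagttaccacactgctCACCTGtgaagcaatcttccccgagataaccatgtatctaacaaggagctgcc
S100a11 (chr3:93520246-93520495, +): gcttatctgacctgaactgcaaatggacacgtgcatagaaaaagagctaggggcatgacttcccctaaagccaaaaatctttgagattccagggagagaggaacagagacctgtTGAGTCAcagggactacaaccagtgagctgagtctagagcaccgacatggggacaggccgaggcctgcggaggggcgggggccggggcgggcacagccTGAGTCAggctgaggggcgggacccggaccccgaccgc
S100a4 (chr3:90603520-90603769, +): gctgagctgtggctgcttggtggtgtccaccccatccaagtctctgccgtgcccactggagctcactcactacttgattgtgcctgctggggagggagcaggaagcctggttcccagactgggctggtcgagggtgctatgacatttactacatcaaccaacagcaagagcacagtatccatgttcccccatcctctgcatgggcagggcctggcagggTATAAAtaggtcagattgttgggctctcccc
The TATA boxes of *S100a8* and *S100a4* began 30 and 31 bases before the start, and 12.4% of 32851 RefSeq promoter windows hold this motif. In *S100a9* the C/EBP motif, present in 9.56% of windows, began 236 bases and the E-box, present in 17.2%, began 53 bases before the start. *S100a11* held 2 AP-1 motifs, at 136 and 38 bases before the start, and 6.75% of windows hold at least 1. None of the 4 letter strings was shared by the windows of *S100a8* and *S100a9*. Windows were found for 7 of the 8 members, and the table did not list *S100a10*. Among the members whose windows are not shown, only *S100a16* held any of these motifs. The E-box began 203 bases before 1 of its start sites and an AP-1 motif 192 bases before another.

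Plates held 1575726 to 3699058 transcripts. Of 2304 wells, 1233 had 100 to 6000 genes and under 10% mitochondrial counts and were kept. They were assigned to classes by lists of marker genes that contain no S100 gene. There were 474 fibroblast-like, 85 pericyte-like, 405 neutrophil-like and 84 epithelial-like wells, and fibroblast-like wells were divided into 140 iCAF-like (inflammatory fibroblast markers such as *Pi16* and *Ptx3*), 101 telocyte-like (*Wnt5a*, *Bmp7*), 136 *Cxcl13*/*Grem1* and 19 *Myoc*/*Angptl7* wells. The remaining 78 fibroblast-like wells met no subtype rule and entered no comparison of subtypes. The median fibroblast-like well held all 10 fibroblast markers and the median neutrophil-like well 8 of 10 neutrophil markers, and neutrophil-like and epithelial-like wells were thus present in spite of the sort. Neutrophil-like wells were 6.19% to 83.3% of the kept wells of a plate and were shallower, with a median of 1442 transcripts against 12014 in fibroblast-like wells. Plates 3 and 6 held only 11 and 6 fibroblast-like wells. Of the pericyte-like wells 58 (68.2%) also met the rule for fibroblasts, and the fibroblast markers summed to 22796.5 CPM in this class against 50527 CPM in fibroblast-like wells. Levels are given as CPM, the transcripts of a gene per 1000000 transcripts of the class on that plate, and only for plates with at least 5 wells of the class, except for 1 sum of 4 epithelial-like wells that is named as such. Because 1 molecule gives 1 barcode at its 3′ end, CPM can be compared between genes without division by length. *Zeb1* in fibroblast-like wells was 113, 89.0 and 98.4 CPM in Zeb1Fib-Ctrl mice and 59.0, 82.04 and 44.9 CPM in Zeb1Fib-deleted mice, but tags at the 3′ end may lie outside the deleted exons, so this does not check the genotype labels (edgeR log2 −0.59 ± 0.29, unadjusted p = 0.0737, adjusted p = 0.9999).

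*S100a6* had the highest mean level of the 8 members in fibroblast-like, pericyte-like and epithelial-like wells, and *S100a9* in neutrophil-like wells. This order did not hold on every plate. In pericyte-like wells of plate 1, *S100a6* was 991 CPM and *S100a11* 1014 CPM. In epithelial-like wells of plate 5, *S100a6* was 440 CPM, below *S100a11* (649 CPM) and *S100a10* (601 CPM). In fibroblast-like wells their levels summed to a mean of 4211 CPM (3603 to 5015 over 6 plates), and *S100a6* made up 49.7% of this, *S100a11* 22.1% and *S100a10* 13.4%. In neutrophil-like wells the sum was 84147 CPM (51694 to 103797), and *S100a9* (52.3%) and *S100a8* (38.3%) led. Epithelial-like wells summed to 7593 CPM (2264 to 11983 over 4 plates) and again had *S100a6* first in the mean share, at 51.0% (SD 21.9). The class with the lowest sum was the telocyte-like one, with 3329 CPM, against 5384 CPM in iCAF-like wells, where *S100a10* contributed 23.3%. The stacked shares by class show these compositions.

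**Figure D1:**
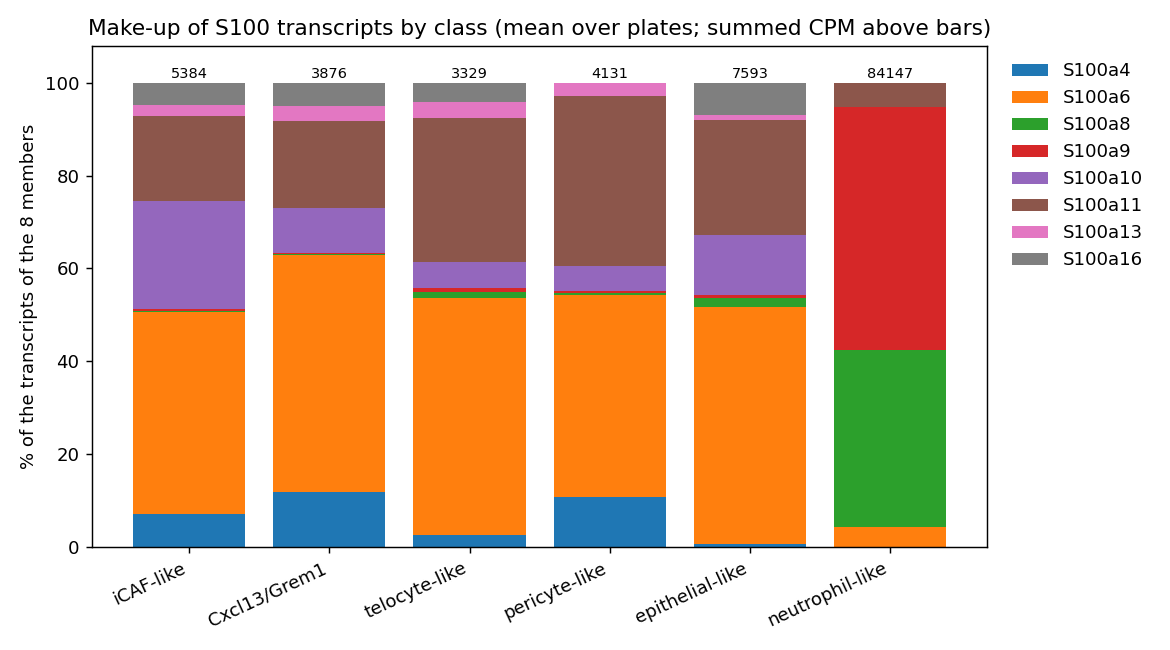
Share of each member in the summed transcripts of the 8 members (y axis, percent, mean over plates with at least 5 wells) for 6 classes (x axis), with the summed level in CPM written above each bar. *S100a9* (52.3%) and *S100a8* (38.3%) fill most of the neutrophil-like bar, and *S100a6* has the highest share in each of the other 5.

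*S100a8* and *S100a9*, the calprotectin genes, stood out in neutrophil-like wells. *S100a8* in neutrophil-like wells was 40492, 36161 and 42116 CPM on plates 1, 3 and 4 and 25200, 18691 and 32446 CPM on plates 2, 5 and 6. *S100a9* was 55009, 51003 and 49401 CPM and 38247, 27812 and 41596 CPM on the same plates. In the fibroblast-like wells of every plate both were far lower. The values of *S100a8* were 11.3, 15.5, 111, 12.3, 10.7 and 101.1 CPM on plates 1 to 6 and those of *S100a9* were 6.41, 18.6, 141, 6.15, 20.2 and 11.2 CPM. The fitted difference between the classes (edgeR quasi-likelihood test on sums per plate, plate as a block, Benjamini-Hochberg adjustment over all genes) was a log2 fold change of 10.39 ± 0.59 (SE) for *S100a8* (adjusted p = 6.82e-17) and of 11.18 ± 0.56 for *S100a9* (adjusted p = 1.05e-17).

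The low *S100a8* and *S100a9* counts outside neutrophil-like wells were few in number. All 474 fibroblast-like wells together held 99 *S100a8* and 96 *S100a9* transcripts, and 16.9% of them had at least 1 *S100a8* transcript. With every well thinned to 1000 barcodes, 1.93% of fibroblast-like wells had 1 (466 wells, 8 shallower wells left out) against 98.2% of neutrophil-like wells (285 wells, 120 left out). Fibroblast-like *S100a8* was highest on plates 3 and 6, on which 83.3% and 54.1% of the kept wells were neutrophil-like, and *S100a9* on plate 3 alone. On plate 3 the ratio of *S100a8* to *S100a9* transcripts was 0.789 in fibroblast-like and 0.709 in neutrophil-like wells, whereas on plate 6 the fibroblast-like wells held 9 and 1 transcripts. Whether free RNA from neutrophils contributed to these counts was not tested.

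**Figure D2:**
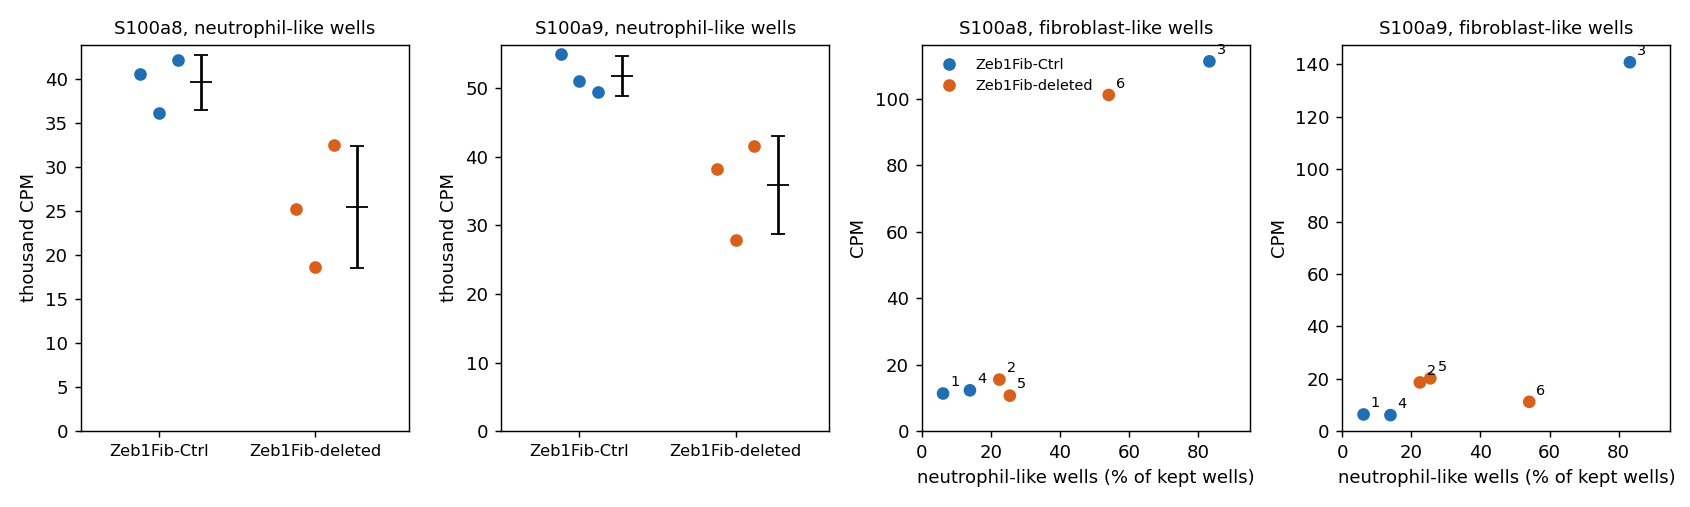
Left pair: level of *S100a8* and *S100a9* in neutrophil-like wells (y axis, CPM divided by 1000), 1 point per plate, with the mean and SD of the 3 plates of each genotype beside the points. Right pair: level in fibroblast-like wells (y axis, CPM) against the percentage of kept wells that were neutrophil-like (x axis), with plate numbers. All 3 Zeb1Fib-deleted plates lie below all 3 Zeb1Fib-Ctrl plates on the left, and plate 3, with 83.3% neutrophil-like wells, has the highest value in both panels on the right.

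Epithelial-like wells had a higher level of *S100a8* than fibroblast-like wells on 3 of 4 plates. The levels were 35.4, 14.1, 151 and 87.3 CPM on plates 1, 4, 5 and 6, and the fitted log2 difference of 1.46 ± 0.60 did not pass the test (edgeR adjusted p = 0.0641). It passed without plates 3 and 6 (2.24, edgeR adjusted p = 0.00457) and in 6 of 15 alternatives in all, over which the adjusted p of the model fits ranged from 0.00457 to 0.892. On plate 5 these wells held 60.23 *S100a8* and 16.01 *S100a9* transcripts, a ratio of 3.76, where the neutrophil-like wells of that plate had a ratio of 0.672. Of the 27 epithelial-like wells of plate 5, 25 had *Krt5* or *Krt14* transcripts, keratins of basal and squamous epithelium. *S100a8* in these 25 wells was 154 CPM.

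*S100a11* and *S100a6* were detected in 91.1% to 98.3% of the fibroblast-like, pericyte-like, neutrophil-like and epithelial-like wells. *S100a11* was a neutrophil-high gene as well, with 4635, 3582, 4333, 4917, 2940 and 4834 CPM in neutrophil-like and 844, 928, 928, 875, 868 and 1024 CPM in fibroblast-like wells of plates 1 to 6. The ranges did not overlap, and the fitted log2 fold change was 2.24 ± 0.33 (edgeR adjusted p = 5.17e-07). Relative to its mean it varied less between the fibroblast-like sums than any other member, with an SD of 64.8 CPM around a mean of 911 CPM (n = 6 plates). Pericyte-like wells had 1014, 1968 and 1375 CPM (plates 1, 2 and 4), above the fibroblast-like wells of each of these plates, but this did not pass the test (log2 0.51 ± 0.41, edgeR adjusted p = 0.595).

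*S100a6* was the most abundant member in fibroblast-like wells, with 2160, 2584, 1517, 1937, 2514 and 1905 CPM, and 98.3% of these wells held a transcript. Neutrophil-like wells had 3549, 3570, 4145, 3678, 2052 and 3709 CPM. They were higher than the fibroblast-like wells on 5 of 6 plates, with plate 5 as the exception. The fit gave a log2 difference of 0.65 ± 0.41 (edgeR adjusted p = 0.163), which passed without plate 5 (1.05, adjusted p = 0.00725) and with equal weight of wells (0.91, adjusted p = 0.0414). Epithelial-like wells spanned the widest range of any class, with 2723, 6839, 440.3 and 8260 CPM on plates 1, 4, 5 and 6. On plate 5, where most of these wells had *Krt5* or *Krt14* transcripts, *S100a6* was below the 2514 CPM of the fibroblast-like wells, and on the other 3 plates it was above them. In wells without *Krt5* or *Krt14* it was 6979 CPM on plate 4 (29 wells) and 8692 CPM on plate 6 (12 wells). The 4 wells with these keratins on plate 6 had 7375 CPM and the 25 on plate 5 had 436 CPM. *S100a11* was also lowest on plate 5 in this class, with 649 CPM against 1366, 2906 and 2049 CPM on plates 1, 4 and 6. Neither gene passed the test against fibroblast-like wells (log2 0.67 ± 0.48, edgeR adjusted p = 0.326, and 0.69 ± 0.37, edgeR adjusted p = 0.171). Without plate 5 both did (1.35, edgeR adjusted p = 0.00600, and 1.004, edgeR adjusted p = 0.0444), and *S100a11* also passed in DESeq2 with all plates (0.711, adjusted p = 0.0244).

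**Figure D3:**
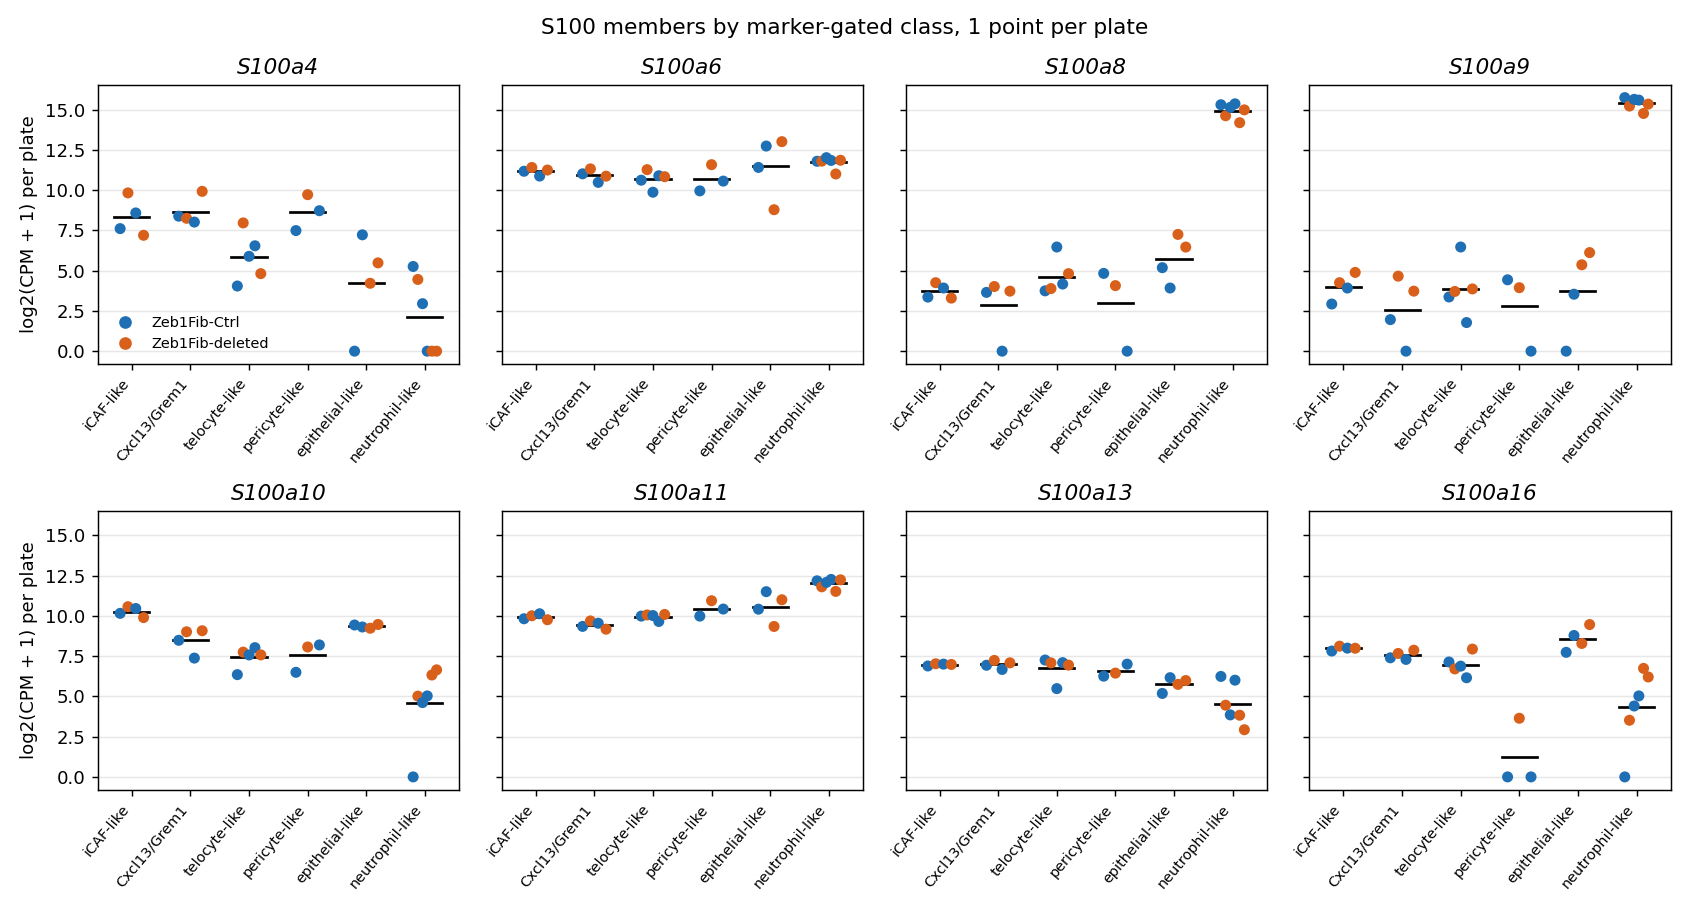
Level of each member as log2(CPM + 1) (y axis) in 6 classes (x axis), 1 point per plate with at least 5 wells, colored by genotype, with the mean over plates as a black line. *S100a8* and *S100a9* stand near 15 in neutrophil-like wells and below 8 in every other class, and *S100a6* in epithelial-like wells has its lowest point on plate 5.

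*S100a4* was more concentrated in single fibroblasts than the other members with higher levels there than in neutrophil-like wells. In fibroblast-like wells it was 250, 394, 319, 211, 379 and 0 CPM on plates 1 to 6. The 6 fibroblast-like wells of plate 6 held 89028 transcripts in all, so that a level of up to 33.7 CPM (3 transcripts, counting error only) is allowed by that count of 0. Of all fibroblast-like wells 48.9% had a transcript, and the 48 wells with the most *S100a4* held 60.9% of its transcripts, against 45.2% for *S100a10*, 34.5% for *S100a16* and 32.5% for *S100a13* in their own top 48 wells. Depth differs between wells and enters these shares. Pericyte-like wells held it too, with 179, 842 and 422 CPM (plates 1, 2 and 4), a log2 difference of 0.21 ± 0.58 (95% interval −0.93 to 1.35, edgeR adjusted p = 0.930). Neutrophil-like wells had 5 transcripts in 405 wells, a level of 10.8 ± 15.3 CPM (SD, n = 6), and the fit gave −4.86 ± 0.75 (edgeR adjusted p = 9.40e-07). In epithelial-like wells the levels were 0, 149, 17.6 and 43.7 CPM (plates 1, 4, 5 and 6), a log2 difference of −1.999 ± 0.64 (edgeR adjusted p = 0.0158). That call was lost in 4 of 15 alternatives (adjusted p from 0.000709 to 0.146), among them the fit without plate 1 and the fit without plate 5.

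*S100a10*, the annexin A2 partner, was 662, 593, 408, 427, 810.2 and 529 CPM in fibroblast-like wells. It was lower in the neutrophil-like wells of every plate, which had 0 to 99.4 CPM (log2 −3.36 ± 0.44, edgeR adjusted p = 5.49e-08). Pericyte-like wells had 89.3, 268 and 292 CPM, below the fibroblast-like wells of all 3 plates (log2 −1.48 ± 0.49, edgeR adjusted p = 0.0349). Over 15 alternatives 11 kept this call (adjusted p from 0.00952 to 0.363), and it was lost without plate 1 (−0.93) and without plate 2 (−1.68). In epithelial-like wells it was 691, 634, 601 and 707 CPM, and the log2 difference of −0.14 ± 0.41 did not pass (95% interval −0.93 to 0.66).

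*S100a16* separated pericyte-like from fibroblast-like wells more than any other member. Fibroblast-like wells had 191, 191, 111, 132, 276 and 135 CPM, and 76.8% of them had a transcript. Pericyte-like wells held 10 transcripts in 85 wells, at levels of 0, 11.5 and 0 CPM on plates 1, 2 and 4, where a count of 0 allows up to 20.6 CPM on plate 1 and 22.5 CPM on plate 4. The fitted log2 difference was −4.62 ± 0.70 (edgeR adjusted p = 4.55e-06) and was past the threshold in all 14 alternatives that gave a value, from −4.24 without plate 1 to −8.62 without plate 2. The last is no bound, since the pericyte-like sums of plates 1 and 4 were at 0. The median depth of the classes was 11736 transcripts in pericyte-like and 12014 in fibroblast-like wells. Neutrophil-like wells were lower as well (40.2 ± 40.9 CPM, log2 −1.93 ± 0.47, edgeR adjusted p = 0.000625). Epithelial-like wells were higher than the fibroblast-like wells on all 4 plates, with 212, 440, 312 and 704 CPM, but the log2 difference of 0.82 ± 0.43 did not pass (edgeR adjusted p = 0.172), except without plate 5 (1.09, edgeR adjusted p = 0.0339).

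*S100a13* was the least abundant of the fibroblast-high members, with 128, 143, 66.7, 132, 137 and 89.9 CPM in fibroblast-like wells. The 4 epithelial-like sums, at 35.4, 70.7, 52.7 and 62.4 CPM, were each below the fibroblast-like sum of their plate (log2 −1.30 ± 0.39, edgeR adjusted p = 0.00979), and 11 of 14 alternatives kept this (edgeR adjusted p from 0.00457 to 0.130), not including the fit without plate 4 (−1.29, edgeR adjusted p = 0.0525). Neutrophil-like wells had 12 transcripts in all, or 32.0 ± 29.2 CPM (log2 −2.21 ± 0.44, edgeR adjusted p = 5.62e-05).

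Of the 8 members, 3 were higher and 4 lower in neutrophil-like than in fibroblast-like wells, where 65.6% of the 5736 genes tested were called (22.5% higher and 43.1% lower, with a median log2 fold change of all genes of −0.83). Relative to the median of all genes *S100a16* was lower by −1.09 and *S100a13* by −1.37 on the log2 scale. The 10 fibroblast markers of the class list were at 4.92% of their fibroblast-like level in neutrophil-like wells (1510.5 to 5345 CPM over plates). *S100a4* was at 4.18% and *S100a10* at 7.74% of the fibroblast-like level, near that of the marker list, while *S100a16* and *S100a13* were at 23.3% and 27.6%, from 27 and 12 transcripts. The part of fibroblast RNA in these neutrophil-like counts was not tested. In pericyte-like wells 0 members were higher and 2 lower, beside 13.8% of all genes called (6.14% higher and 7.64% lower), and in epithelial-like wells 0 were higher and 2 lower, beside 28.5% (11.1% higher and 17.4% lower).

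**Figure D4:**
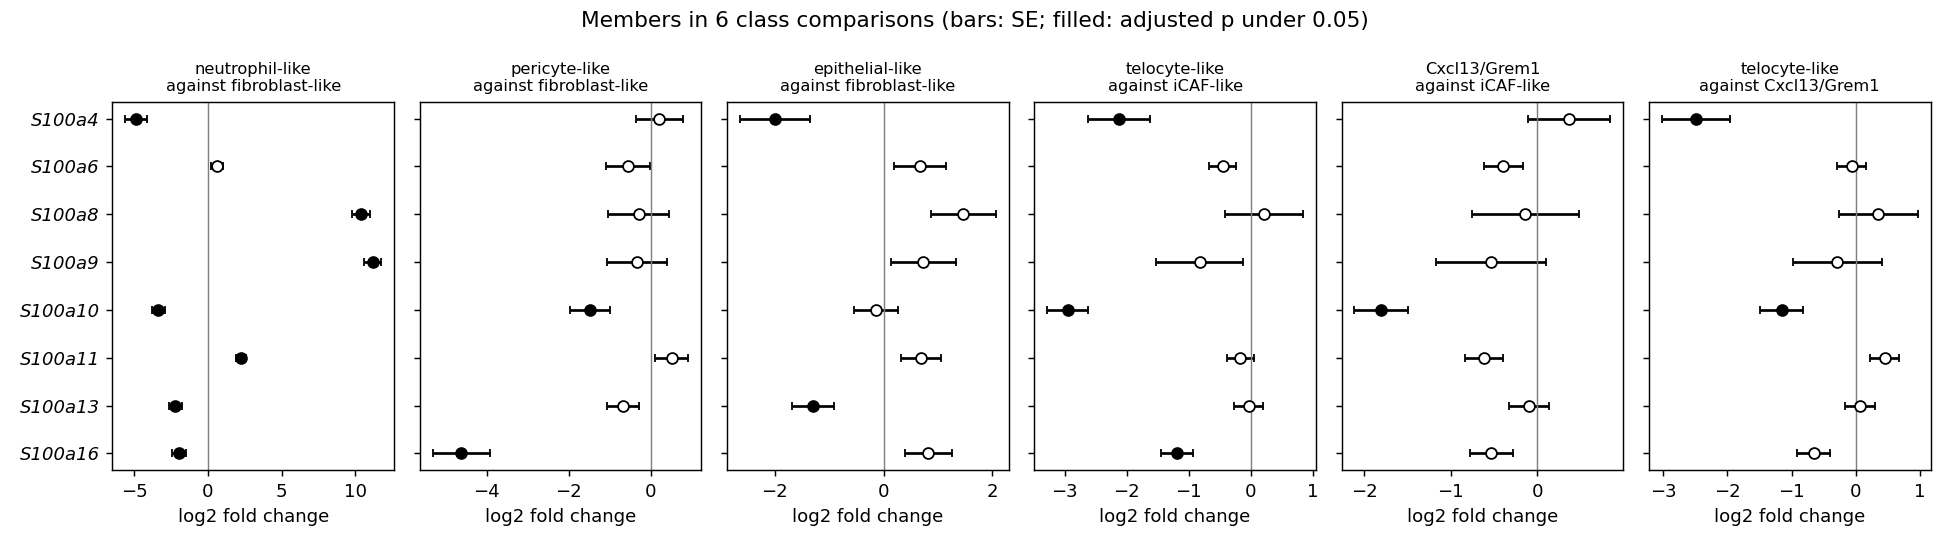
Log2 fold change (x axis) of the 8 members (y axis) in 6 comparisons of classes, 1 panel each, with bars for the SE and filled points for an adjusted p under 0.05 in edgeR. *S100a8* and *S100a9* lie above 10 in the first panel, and *S100a10* is filled and left of 0 in 5 of the 6 panels, all except the epithelial-like one.

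Within the fibroblasts, *S100a10* was the only member that passed the test in each comparison of subtypes that was made. iCAF-like wells had 1142, 1521, 1407 and 952 CPM (plates 1, 2, 4 and 5). Telocyte-like wells had 80.7, 214, 190, 260.1 and 190.2 CPM on plates 1 to 5, and *Cxcl13*/*Grem1* wells had 357, 516, 166 and 539 CPM (plates 1, 2, 4 and 5). The lowest iCAF-like sum was above the highest sum of either of the other subtypes. The log2 difference to iCAF-like wells was −2.95 ± 0.33 in telocyte-like wells (edgeR adjusted p = 5.14e-07) and −1.80 ± 0.31 in *Cxcl13*/*Grem1* wells (edgeR adjusted p = 0.000386), and both were past the threshold in all 15 alternatives. Telocyte-like wells were also below *Cxcl13*/*Grem1* wells (−1.15 ± 0.33, edgeR adjusted p = 0.0374), on 3 of 4 plates, but 8 of 15 alternatives kept this call (edgeR or DESeq2 adjusted p from 7.76e-06 to 0.517), which was lost when plate 1, 2 or 5 was left out. The *Myoc*/*Angptl7* wells, found on plate 5 alone, had 782 CPM. At 1000 barcodes per well, an *S100a10* transcript was present in 65.7% of 140 iCAF-like, 20.8% of 101 telocyte-like and 30.9% of 136 *Cxcl13*/*Grem1* wells, against 3.86% of 285 neutrophil-like wells, and unthinned in 97.9%, 56.4%, 85.3% and 7.41% of the wells.

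*S100a4* was low in telocyte-like wells, with 15.5, 249, 58.4, 92.4 and 27.1 CPM on plates 1 to 5. iCAF-like wells had 194.5, 908 and 383 CPM on plates 1, 2 and 4 and 145.7 CPM on plate 5, and *Cxcl13*/*Grem1* wells 333, 304, 258.04 and 971 CPM (plates 1, 2, 4 and 5). On each of these 4 plates the telocyte-like value was below both others (log2 −2.12 ± 0.50 against iCAF-like, edgeR adjusted p = 0.00331, and −2.49 ± 0.53 against *Cxcl13*/*Grem1*, edgeR adjusted p = 0.00348). Each call held in 12 of 15 alternatives and was lost without plate 1, with equal weight of wells and with wells thinned to 1000 barcodes. iCAF-like and *Cxcl13*/*Grem1* wells did not differ beyond their spread in this gene (0.37 ± 0.48, interval −0.57 to 1.30), and each was the higher one on 2 of 4 plates.

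The means of *S100a16* had the order of those of *S100a10*, at lower levels. iCAF-like wells had 225, 277, 255 and 253 CPM and telocyte-like wells 140, 104, 117, 70.4 and 244 CPM, a log2 difference of −1.18 ± 0.25 (edgeR adjusted p = 0.00145) that was past the threshold in all 15 alternatives. In *Cxcl13*/*Grem1* wells the mean lay between these, with 168, 202, 156 and 233 CPM, and neither difference passed the test (−0.53 ± 0.25 to iCAF-like, edgeR adjusted p = 0.236). None of the other 5 members passed the test between subtypes. *S100a13* had nearly the same mean in iCAF-like (125 ± 5.18 CPM, SD, n = 4), telocyte-like (118 ± 42.7, n = 5) and *Cxcl13*/*Grem1* wells (127 ± 20.6, n = 4), with an interval of the log2 difference between telocyte-like and iCAF-like wells of −0.48 to 0.42. *S100a11* was lowest in *Cxcl13*/*Grem1* wells on all 4 plates, at 651, 824, 746 and 577 CPM against 905, 1029, 1122 and 867 CPM in iCAF-like wells, but did not pass (log2 −0.62 ± 0.22, edgeR adjusted p = 0.0916, from 0.0370 to 0.571 over alternatives). *S100a6* differed by a log2 value of −0.45 ± 0.22 between telocyte-like and iCAF-like wells (edgeR adjusted p = 0.196). *S100a8* and *S100a9* had 19 to 37 transcripts in each of the 3 subtypes, and no difference was detectable at this depth. In fibroblast-like wells without a subtype the means over 3 plates were 302 ± 139 CPM (SD) for *S100a16*, 176 ± 47.1 for *S100a13*, 2929 ± 366 for *S100a6* and 511 ± 128 for *S100a4*. These 4 means were above those of the 3 subtypes. *S100a10*, at 750 ± 171 CPM, was below its iCAF-like mean, and *S100a8*, *S100a9* and *S100a11* were not above all 3 subtypes.

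In all, 3 members were lower and 0 higher in telocyte-like than in iCAF-like wells, beside 16.9% of the 8606 genes tested (7.95% higher and 8.91% lower). The other 2 comparisons gave 1 lower member in *Cxcl13*/*Grem1* against iCAF-like wells, beside 8.63% of genes (4.23% higher and 4.4% lower), and 2 lower members in telocyte-like against *Cxcl13*/*Grem1* wells, beside 6.3% (3.04% higher and 3.25% lower). The median log2 fold change of all genes was between 0.01 and 0.05 in these fits.

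**Figure D5:**
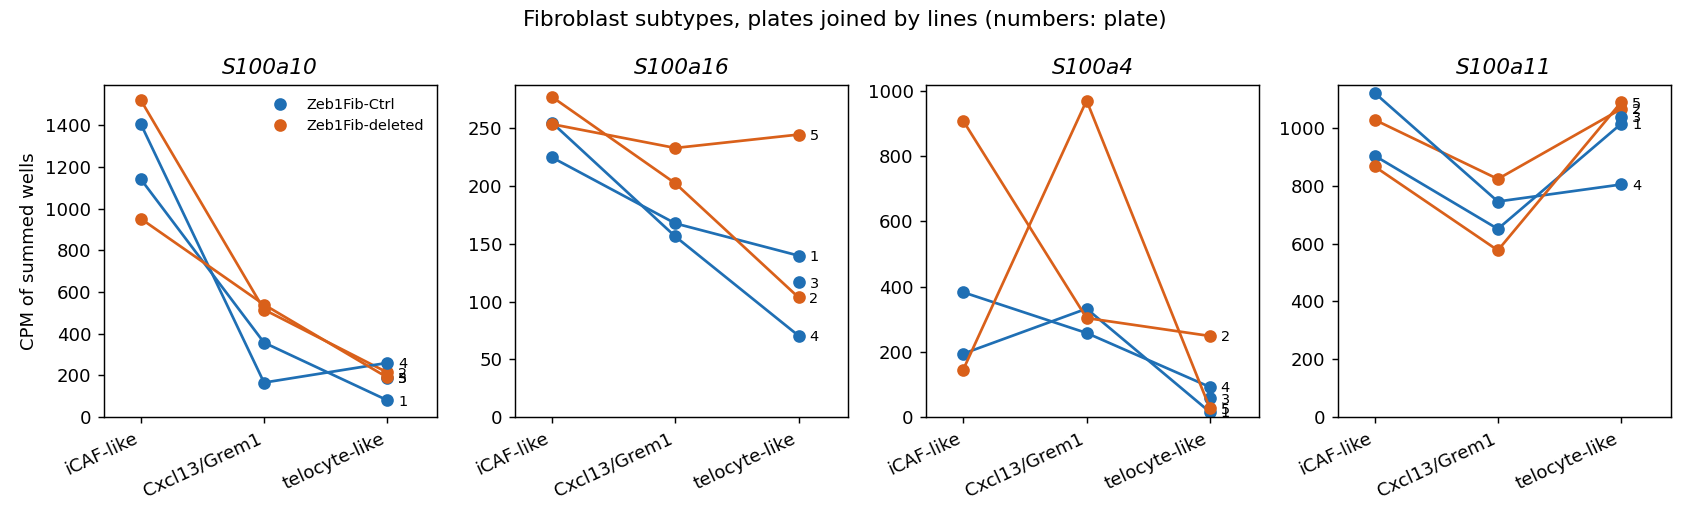
Level (y axis, CPM of the summed wells) of *S100a10*, *S100a16*, *S100a4* and *S100a11* in 3 fibroblast subtypes (x axis), with the sums of a plate joined by a line, colored by genotype and labeled with the plate number. *S100a10* falls from iCAF-like to telocyte-like wells on all 4 plates with both, and *S100a4* does not fall between iCAF-like and *Cxcl13*/*Grem1* wells on every plate.

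The partners of the S100 proteins, 17 genes listed by name, moved in both directions between the subtypes. Of the 14 tested in telocyte-like against iCAF-like wells, 5 were lower and 3 higher, beside 16.9% of all genes called. The lower ones include both partners of S100A10, *Anxa2* (log2 −1.40 ± 0.24, edgeR adjusted p = 0.000148) and *Ahnak* (−1.53 ± 0.25, edgeR adjusted p = 8.77e-05), and the annexin genes *Anxa1* (−1.18), *Anxa11* (−1.12) and *Anxa5* (−0.74). Higher in telocyte-like wells were *Myh9* (1.87 ± 0.24, edgeR adjusted p = 2.86e-06), the myosin heavy chain to which S100A4 binds, *Tpm1* (2.28), a tropomyosin, and *Anxa6* (0.83). *Myh9* and *S100a4* thus differed in opposite directions in this comparison. In *Cxcl13*/*Grem1* against iCAF-like wells 3 partners were lower (*Ahnak*, *Anxa1* and *Anxa5*) and 2 higher (*Myh9* and *Tpm1*), beside 8.63% of all genes, and in telocyte-like against *Cxcl13*/*Grem1* wells 0 were lower and the same 2 genes higher, beside 6.3%. *Zeb1*, the floxed gene, was lower in telocyte-like than in iCAF-like wells too (−1.30 ± 0.33, edgeR adjusted p = 0.00582).

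Across the broad classes 13 of the 17 partners were tested. In neutrophil-like wells 4 were higher and 5 lower than in fibroblast-like wells, a share near the 65.6% of all genes called. *Il1a*, the cytokine released with S100A13, was higher (5.83 ± 0.62) although *S100a13* itself was lower, and *Anxa11* (2.82 ± 0.35), *Tlr4* (1.36 ± 0.58), a receptor for S100A8 and S100A9, and *Myh9* (0.996 ± 0.33) were higher as well. *Ahnak* was lower in neutrophil-like wells (−4.39 ± 0.39), as was *Anxa5* (−3.65), *Tpm1* (−2.76), *Anxa6* (−2.33) and *Bsg* (−0.88). *Anxa2* was not lower there, with mean levels of 1079 CPM in neutrophil-like and 866 CPM in fibroblast-like wells. Pericyte-like wells had 1 partner higher (*Myh9*, 1.28 ± 0.39) and 0 lower, and epithelial-like wells 3 lower (*Ahnak*, *Anxa5* and *Anxa6*) and 0 higher, beside 13.8% and 28.5% of all genes. The receptor gene *Ager* had 22 and *Cd36* 19 transcripts in all kept wells.

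The study compared fibroblasts with and without *Zeb1*, and for the S100 genes no call between the genotypes was made. In fibroblast-like wells 0 of 8 members and 0 of 8088 genes (0%) passed edgeR's test, where 123 genes had an unadjusted p under 0.05 and DESeq2 called 0. Fold changes ran from −0.43 for *S100a9* to 0.52 for *S100a16*. *S100a6* had means of 1872 ± 327 CPM in Zeb1Fib-Ctrl and 2334 ± 373 CPM in Zeb1Fib-deleted mice (SD, n = 3 each), and the interval of its log2 difference was −0.14 to 0.84. *S100a10* had 499 ± 141 and 644 ± 147 CPM, with an interval of −0.21 to 0.9996. These intervals use a normal quantile and are too narrow for so few plates, so the data allow differences of nearly 1 log2 unit or more in these genes. For *S100a4* the interval was wider, from −1.22 to 1.59. No member separated the 2 groups of plates without overlap, which 6.57% of the 8088 genes did. In all kept wells together, where fewer cells of a type and less RNA per cell cannot be told apart, 0 of 8 members and 0 of 10424 genes (0%) passed (73 with an unadjusted p under 0.05, 1 call by DESeq2), and again no member separated the genotypes, against 3.86% of genes.

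In neutrophil-like wells, *S100a8* and *S100a9* were lower in each Zeb1Fib-deleted mouse than in each Zeb1Fib-Ctrl mouse. The means were 25446 ± 6881 against 39590 ± 3078 CPM for *S100a8* (SD, n = 3 each), a ratio of 0.643, and 35885 ± 7190 against 51804 ± 2889 CPM for *S100a9*, a ratio of 0.693. Of the 1247 genes tested, 7.06% separated the genotypes without overlap and 3.45% did so with the lower values in Zeb1Fib-deleted mice. The exact two-sided permutation test over the 6 plates gave p = 0.10 for both, the smallest value it can give, and 0.80 after Benjamini-Hochberg adjustment over 24 tests. edgeR gave log2 differences of −0.65 ± 0.24 (unadjusted p = 0.0132, adjusted p = 0.996) and −0.55 ± 0.21 (unadjusted p = 0.0206, adjusted p = 0.996), and 0 of 1247 genes (0%) passed, where 38 had an unadjusted p under 0.05 and DESeq2 called 0. The Zeb1Fib-Ctrl sums rest on 14, 184 and 19 wells and the Zeb1Fib-deleted sums on 67, 62 and 59 wells. *S100a6* (3791 and 3110 CPM) and *S100a11* (4628 and 3785 CPM) had overlapping values, and the other 4 members did not pass the filter on low counts in this class. The neutrophil markers of the class list summed to 33058 to 37382 CPM in Zeb1Fib-Ctrl and 28127 to 34352 CPM in Zeb1Fib-deleted mice (exact permutation p = 0.20), and their part in the result was not tested. Per transcript of that list the ratio of the means was 0.719 for *S100a8*, with overlapping values (exact permutation p = 0.20), and 0.779 for *S100a9*, without overlap (exact permutation p = 0.10). In a mean well (ratios 0.685 and 0.733) the genotypes did not overlap but almost touched. The lowest Zeb1Fib-Ctrl and highest Zeb1Fib-deleted values were 31244.5 and 31153 CPM for *S100a8* and 41054.2 and 40974.9 CPM for *S100a9*. In wells with at least 1000 transcripts (0.644 and 0.704) these values were 38087.6 and 32146.1 CPM, and 51490.2 and 41232.3 CPM. The share of all genes without overlap was not computed on these scales. On the scale of the mean well *S100a6* did not overlap between the genotypes either (ratio 0.751, exact permutation p = 0.10), but its values overlapped in wells with at least 1000 transcripts and per transcript of the list.

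Other genes with the pattern most like that of a member were sought by Pearson's r of log2(CPM + 1) over the same 27 sums of class and plate, among 6989 genes. A mean of at least 20 CPM was required, and S100 genes and the marker genes of the classes were not candidates. The sums share plates and differ in depth, so these values are descriptions. *S100a8* and *S100a9* had r = 0.973 with each other. The genes most like *S100a9* were *Srgn* (0.971), *Rac2* (0.969) and *Il1b* (0.967), and those most like *S100a8* were *1100001G20Rik* (0.961), *Aqp9* (0.960) and *Cd33* (0.959). *S100a11* was most like *Tmsb4x* (0.957), which encodes the actin-binding thymosin β4, and the actin-nucleation subunit genes *Arpc5* (0.945) and *Arpc2* (0.944). For *S100a10* the leading genes were *Cyb5* (0.936), *Klf4* (0.928) and *Cltb* (0.922), for *S100a13* *Magt1* (0.880), *Mtdh* (0.877) and *Ergic3* (0.877), and for *S100a16* *C1galt1* (0.847), *Ly6a* (0.841) and *Stard5* (0.833). The gene most like *S100a4* was *Phldb1* (0.913). *S100a6* had the weakest likeness to any gene, with *Mapk3* at 0.805.

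Of the other 8 S100 genes in the tables, *S100a1* and *S100a14* had at least 50 transcripts in the kept wells. *S100a14*, an epithelial member, was 497 ± 163 CPM in epithelial-like wells (SD, n = 4) and was found in 75.0% of them, against 2.13 CPM in fibroblast-like wells (log2 7.25 ± 0.54, edgeR adjusted p = 1.02e-11). It was also called higher in neutrophil-like than in fibroblast-like wells (log2 3.57 ± 0.75, edgeR adjusted p = 0.000124). The epithelial markers of the class list summed to 442 CPM in neutrophil-like and 59.5 CPM in fibroblast-like wells. The part of epithelial RNA in this difference was not tested. *S100a1* was 145 ± 42.4 CPM in fibroblast-like (n = 6), 53.5 ± 12.3 CPM in pericyte-like (n = 3) and 22.4 ± 26.02 CPM in neutrophil-like wells (n = 6), and was lower in both of the latter classes (log2 −1.64 ± 0.51, edgeR adjusted p = 0.0241, and −2.64 ± 0.52, edgeR adjusted p = 4.42e-05). Among the subtypes it was highest in *Cxcl13*/*Grem1* wells, with 191 ± 24.4 CPM against 102 ± 15.9 CPM in iCAF-like wells (n = 4 each, log2 0.83 ± 0.24, edgeR adjusted p = 0.0276). *S100b*, a marker of glia, had 26 transcripts in 10 wells, 20 of them in the 9 glia-like wells. *S100a3*, *S100a7a* and *S100z* had 4, 9 and 1 transcripts, and *S100a5* and *S100g* had 0.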

How the data were processed

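Single cells from colon tumors of 6 mice were profiled by SORT-seq on 6 plates of 384 wells. Per the methods and the submitters' processing notes, the authors aligned reads to the mouse transcriptome (GRCm38) with BWA and counted different molecular barcodes per gene and well (Cell Ranger 2.1.1 is also named). The deposited barcode tables hold raw counts. The deposited transcript tables hold estimated counts, which the authors derived from the barcode counts with a correction for molecules that share 1 of 4096 barcodes. The labels give the treatment as none, and the tumor model is taken from the methods. There were 0 columns of other samples.

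Wells with 100 to 6000 genes and under 10% mitochondrial counts were kept. Spike-in transcripts (7.85% to 18.6% of a plate) were left out. Wells were assigned by the number of marker genes detected (neutrophil at least 4 of 10, epithelium 4 of 12, pericyte 5 of 10, fibroblast 6 of 10, the last also with 1% of transcripts from the list). Wells were called mixed where they met several of the lists other than the fibroblast one, or the fibroblast rule together with a leukocyte, epithelial or endothelial list. Pericyte, smooth muscle and glia lists took precedence over the fibroblast rule, and pericyte over smooth muscle. Setting mixed and unassigned wells aside was the only treatment of doublets, and it was not applied to the comparison of all kept wells. Fibroblast subtypes needed 25% of the subtype's marker genes detected and a lead of 10 percentage points, and *Myoc*/*Angptl7* wells both genes. The minimums were set after the marker counts, but no S100 level, had been seen. The 8 members and the gene lists were chosen with earlier results of these data known. All members were named, other S100 genes with at least 50 transcripts were described by class, and partners are reported by counts with the called genes.

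Transcripts were summed per plate and class of at least 5 wells, rounded and tested with edgeR 4.0.16 (quasi-likelihood, TMM, filterByExpr) in R 4.3.3, with plate as a block between classes and without a block between genotypes. p-values were adjusted by Benjamini-Hochberg over all genes tested, with a threshold of 0.05. SEs are the absolute log2 fold change divided by the root of F. Single values were compared between genotypes by exact two-sided permutation over plates with scipy 1.17.1. Intervals of fold changes are nominally 95% and rest on the SE with a normal quantile, which makes them too narrow for so few plates. Zero-count limits are 3 transcripts and cover counting error only. The scripts were tested on simulated counts. Alternatives were DESeq2 1.42.0, its size factors in edgeR, no filter, barcode counts, equal weight of wells, a stricter gate, thinning to 1000 barcodes, leaving out wells with *Ptprc* or *Epcam* and leaving out each plate. Leaving out plates 3 and 6 together and the split by *Krt5* or *Krt14* were added after seeing the data. Replicate numbers follow the order of the samples and name them only.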

Additional observations from a re-analysis of the deposited data

Results flagged for a closer look

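Of 56 groups of 4 to 6 plates, 7 held a plate that stood far from the others. Chance marks about 1 in 20 independent groups, but these groups share plates and wells, so that rate does not apply to them. *S100a4* in *Cxcl13*/*Grem1* wells was 971.036 CPM on plate 5, with the nearest plate at 332.567 CPM. *S100a6* in neutrophil-like wells was 2052.32 CPM on plate 5, with the nearest at 3548.86 CPM. *S100a11* in telocyte-like wells was lowest on plate 4, with 804.706 CPM against 1014.63 CPM on the nearest plate. The other 4 came from plate 3, which held 11 fibroblast-like and 5 telocyte-like wells: *S100a8* and *S100a9* in telocyte-like wells were 87.5381 CPM each (nearest plates 27.1496 and 13.5748 CPM), *S100a9* in fibroblast-like wells was 140.848 CPM (nearest 20.2132 CPM) and *S100a13* in telocyte-like wells was 43.769 CPM (nearest 122.173 CPM).

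Only 2 plates of each genotype had sums of telocyte-like and of *Cxcl13*/*Grem1* wells. *S100a13* was higher in the telocyte-like wells of each such Zeb1Fib-Ctrl plate, by a mean of 32.791 CPM. It was lower there in each such Zeb1Fib-deleted plate, with a mean difference of −13.813 CPM. The fitted log2 difference between these classes, without regard to genotype, was 0.06 ± 0.23 (edgeR adjusted p = 0.984). The share of all genes with such a change of direction was not computed. The difference between the genotypes was not tested.

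Wells outside the named classes also held *S100a8* and *S100a9*. In the 72 mixed wells, *S100a8* was 2572.96 CPM and *S100a9* 3756.52 CPM in the sum over all plates, and the means over 5 plates were 4217 and 5912 CPM. In the 90 unassigned wells they were 733.489 and 766.164 CPM in the sum over all plates, with means over 6 plates of 1202 and 1199 CPM. The plate means in fibroblast-like wells were 43.7 and 33.9 CPM. Neither set of wells entered a comparison between classes, but both were part of all kept wells, in which the genotypes were compared.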

How the results depend on the processing

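No paired analysis was possible because the labels give the mice no replicate number and the numbers used here follow sample order. Of the comparisons of genotypes, all gave 0 called members under every alternative. Between neutrophil-like and fibroblast-like wells 7 members were called and 5 to 8 under the alternatives, the 5 being of 6 members tested after thinning, and between telocyte-like and iCAF-like wells 3 and 2 to 3. For pericyte-like wells the 2 called members became 1 with equal weight of wells, 0 of 6 tested after thinning and 1 to 2 with a plate left out. For epithelial-like wells 2 became 1 with equal weight, 0 of 6 tested after thinning and 1 to 4 with a plate left out. *S100a13* and *S100a16* did not pass the filter after thinning in these 3 comparisons, so that the calls lost there by test were *S100a10* in pericyte-like and *S100a4* in epithelial-like wells. For *Cxcl13*/*Grem1* against iCAF-like wells 1 became 2 with DESeq2 and with the stricter gate. For telocyte-like against *Cxcl13*/*Grem1* wells 2 became 1 with DESeq2 and without wells with *Ptprc* or *Epcam*, 0 with equal weight (6 tested) and after thinning (5 tested), and 0 to 2 with a plate left out. The cause of these shifts was not tested. Thinning left 1415 of 5736 genes in the tests of the broad classes and 1036 of 8606 in those of subtypes. The called genes went from 743 to 104, 1633 to 387, 3762 to 1083, 790 to 221, 542 to 98 and 1451 to 206 (*Cxcl13*/*Grem1* against iCAF-like, epithelial-like, neutrophil-like, pericyte-like, telocyte-like against *Cxcl13*/*Grem1*, telocyte-like against iCAF-like), while the share of tested genes called went from 8.63% to 10%, 28.5% to 27.3%, 65.6% to 76.5%, 13.8% to 15.6%, 6.3% to 9.46% and 16.9% to 19.9%. Equal weight gave 1024, 441 and 943 called genes for epithelial-like, pericyte-like and telocyte-like against iCAF-like wells (16.8%, 7.23% and 22.3% of those tested), and no filter gave 2549 (14.8%) for epithelial-like wells. Without plate 1 the counts were 250 (*Cxcl13*/*Grem1* against iCAF-like), 515 (pericyte-like), 174 (telocyte-like against *Cxcl13*/*Grem1*) and 698 (telocyte-like against iCAF-like), and without plate 2 they were 351, 461, 297 and 827. Between genotypes no filter called 6 genes in fibroblast-like and 3 in neutrophil-like wells, where leaving out plate 1 called 1.

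Differences that changed sign had not passed the test. In log2 units, with equal weight these were *S100a4* in pericyte-like wells (−0.1411), *S100a13* in telocyte-like (0.1998) and *Cxcl13*/*Grem1* against iCAF-like wells (0.0056) and *S100a6* in telocyte-like against *Cxcl13*/*Grem1* wells (0.0726). With the stricter gate they were *S100a4* in pericyte-like wells (−0.1664) and between genotypes in fibroblast-like wells (−0.1627), *S100a13* in telocyte-like (0.155) and *Cxcl13*/*Grem1* against iCAF-like wells (0.0496) and *S100a8* in the latter (0.1529). After thinning they were *S100a9* in epithelial-like wells (−0.4921), *S100a11* in telocyte-like against iCAF-like wells (0.423), *S100a4* in *Cxcl13*/*Grem1* against iCAF-like wells (−0.2264), *S100a6* in telocyte-like against *Cxcl13*/*Grem1* wells (0.4053) and *S100a13* between genotypes in all kept wells (0.0099). DESeq2 and its size factors gave 0.0208 and 0.0197 for *S100a13* in telocyte-like against iCAF-like wells. Without wells with *Ptprc* or *Epcam*, *S100a4* between genotypes in all kept wells was −0.0035. Without plates 3 and 6, *S100a8* in pericyte-like wells was 0.1107, the genotype differences in fibroblast-like wells were 0.2322 (*S100a8*) and 1.6267 (*S100a9*), and those in all kept wells 0.1658 (*S100a8*), 0.4484 (*S100a9*) and 0.0135 (*S100a13*).

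With 1 plate left out, the ranges that crossed 0 were −0.158 to 0.6799 for *S100a4* in pericyte-like wells. In telocyte-like against iCAF-like wells they were −0.063 to 0.0397 (*S100a13*) and −0.015 to 0.7002 (*S100a8*). In *Cxcl13*/*Grem1* against iCAF-like wells they were −0.4325 to 1.0237 (*S100a4*) and −0.2854 to 0.0222 (*S100a8*). In telocyte-like against *Cxcl13*/*Grem1* wells they were −0.0271 to 0.1736 (*S100a13*), −0.2221 to 0.0557 (*S100a6*) and −0.7306 to 0.8991 (*S100a9*). Between genotypes in fibroblast-like wells they were −0.1236 to 0.6578 (*S100a4*), −0.9558 to 0.9275 (*S100a8*) and −1.3735 to 1.5576 (*S100a9*). In all kept wells they were −0.0554 to 0.5983 (*S100a10*), −0.7828 to 0.2751 (*S100a11*), −0.2856 to 0.2222 (*S100a13*), −0.9907 to 0.5549 (*S100a4*), −0.343 to 0.1628 (*S100a6*), −2.9183 to 1.9506 (*S100a8*) and −2.8414 to 2.109 (*S100a9*).

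Depth limits the values of *S100a4*, *S100a13* and *S100a16* in neutrophil-like wells, which rest on 5, 12 and 27 transcripts, and plates 3 and 6 give few fibroblast-like wells.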
